A study of Mus musculus with 2 samples.

Results

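In hindbrain of newborn mice, 9 of 10 Frizzled receptors, both Lrp co-receptors and 6 of 19 Wnt ligands reached 1 TPM in both libraries, while reads of 18 of the 19 ligands were found in at least 1 library. With TPM rescaled over protein-coding genes of the nuclear genome, 10 of 10 receptors and 13 of 19 ligands reached that level. The genes described here are the Wnt ligands (Wnt with a number), the Frizzled receptors (Fzd with a number), the co-receptors Lrp5 and Lrp6, the secreted antagonists Sfrp1 to Sfrp5, Dkk1 to Dkk4 and Wif1, the R-spondins with their receptors Lgr4 to Lgr6, and the cytoplasmic and nuclear members Ctnnb1, Axin2, Lef1, Tcf7, Tcf7l1 and Tcf7l2. They were chosen by symbol among protein-coding genes, and 53 of 21461 protein-coding genes met the rule. The rule uses no measured values, but it was set with earlier results of these data known. They comprised 19 ligands, 10 Frizzled receptors, 2 co-receptors, 9 antagonists, 4 R-spondins, 3 Lgr receptors and 6 cytoplasmic and nuclear members. The symbol Sfrp3 named no gene, since the mouse gene of that protein is called Frzb, and Frzb is given below with the other genes of the pathway.

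The series held 2 libraries of 1 group, replicate 1 and replicate 2, both of hindbrain (cerebellum, pons and medulla) from mice of strain B6NTac;B6NCrl/Lap on postnatal day 0, with both sexes pooled and no treatment or allele named. Replicate 1 pooled 15 mice, the number of mice in replicate 2 is not given, and both carry the same donor identifier. How much of the difference between these samples is technical is not known. Total RNA over 200 nt was depleted of ribosomal RNA and sequenced as stranded read pairs. Each table gives estimated fragment counts and TPM, which divides counts by effective length and scales each library to the same sum. Mean ± SD refers to these 2 libraries (n = 2), and since an exact sign-flip test over them cannot go below p = 0.5, no p-values are given.

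Depth was 54313140 expected counts in replicate 1 and 77142270 in replicate 2, of which the 53 genes held 106626 and 150260. None of their gene counts lay over 0.005 from a whole number. TPM of protein-coding genes with a mean count of 1000 or more was higher in replicate 1 by a median factor of 1.448, a factor shared by the whole library that enters every SD of TPM below. Levels between genes are therefore also given as ratios within a library, where the factor cancels, and levels between libraries as log2 ratios of scaled counts. All 7 listed Hox genes of the hindbrain and all 6 neuron markers reached 1 TPM in both libraries. Hox genes typical of the spinal cord summed to 43.8 TPM in replicate 1 and 15.2 in replicate 2, cartilage and muscle genes to 45.96 and 8.4, and choroid plexus genes to 332 and 354.

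Wnt proteins are secreted, lipid-modified signals that bind Frizzled receptors. Together with Lrp5 or Lrp6, Frizzled receptors keep β-catenin, the product of Ctnnb1, from being broken down, and β-catenin then acts in the nucleus with the factors encoded by Lef1, Tcf7, Tcf7l1 and Tcf7l2. Sfrp and Wif1 proteins bind Wnt in the extracellular space, Dkk1 blocks the co-receptors, and R-spondins acting through Lgr receptors keep Frizzled receptors at the cell surface. In the developing hindbrain the pathway is known for roles in patterning, in the division of progenitors, in axon guidance and in the growth of brain vessels.

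All 19 ligands encode the serine on which the lipid is attached, within the run cysteine, histidine, glycine, any residue, serine, glycine. The 30 bases around that serine are shown for the ligands that reached 1 TPM in both libraries and for the close pair Wnt2 and Wnt2b, to show how alike and how distinct the coding sequences are that the reads had to tell apart. Capitals mark the serine codon, and sequences are read 5′ to 3′ on the strand of the gene from GENCODE M21 transcripts on GRCm38 (mm10).
Wnt7b (chr15:85537812-85537841, minus strand): tgtaagtgtcacggtgtgTCAggctcctgt
Wnt5a (chr14:28522509-28522538, plus strand): tgtaagtgtcatggagtgTCTggctcctgt
Wnt11 (chr7:98850254-98850283, plus strand): tgtaaatgccatggggtgTCTggctcctgc
Wnt7a (chr6:91366272-91366301, minus strand): tgtaagtgccatggtgtgTCAggctcctgt
Wnt3 (chr11:103812308-103812337, plus strand): tgtaaatgccacgggttgTCCggcagctgc
Wnt6 (chr1:74784166-74784195, plus strand): tgtaagtgccatgggcttTCGggttcctgc
Wnt2 (chr6:18008792-18008821, minus strand): tgcaagtgtcatggtgtgAGTggctcctgt
Wnt2b (chr3:104951220-104951249, minus strand): tgcaagtgtcacggtgtgAGTggctcctgt

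The serine was encoded by TCA in 6 ligands, TCC in 5, TCT in 4 and TCG in 2, and by AGT in 2, which were Wnt2 and Wnt2b. Over these 30 bases Wnt7b and Wnt7a were identical at 28, Wnt7b and Wnt5a at 27, and Wnt2 and Wnt2b at 29. Wnt7b and Wnt3 shared 22. Close as these windows are, the gene counts of all 19 ligands were whole.

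Counting a gene as detected at 1 TPM or more in both libraries, 25 of the 53 genes (47.2%) were detected, against 54.6% of all protein-coding genes. On the rescaled TPM 43 of the 53 reached that level, against 63.4% of all protein-coding genes, so both the count and its side of the background depend on the scale. On the deposited scale the share differed by role. It was 6 of 19 for ligands and 0 of 4 for R-spondins, but 9 of 10 for Frizzled receptors and 2 of 2 for co-receptors. Of the antagonists 4 of 9 were detected, of the Lgr receptors 1 of 3 and of the cytoplasmic and nuclear members 3 of 6. On the rescaled TPM the level was reached by 13 of 19 ligands, 10 of 10 Frizzled receptors and 2 of 4 R-spondins. It was also reached by 7 of 9 antagonists, 3 of 3 Lgr receptors and 6 of 6 cytoplasmic and nuclear members. The median level over all 53 was 0.54 on the log2(mean TPM + 0.1) scale, a median of 1.355 TPM. Over all protein-coding genes it was 1.12, a median of 2.07 TPM. That background includes 5020 genes at 0 in both libraries, while 2 of the 53 were at 0 in both. After means under 0.1 TPM were left out, the log2 medians lay further apart. They were 0.585 for the 47 of the 53 that stayed and 2.49 for 14915 protein-coding genes. Since the RNA came from whole tissue, fewer cells that express a gene and less RNA per cell cannot be told apart.

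**Figure D1:**
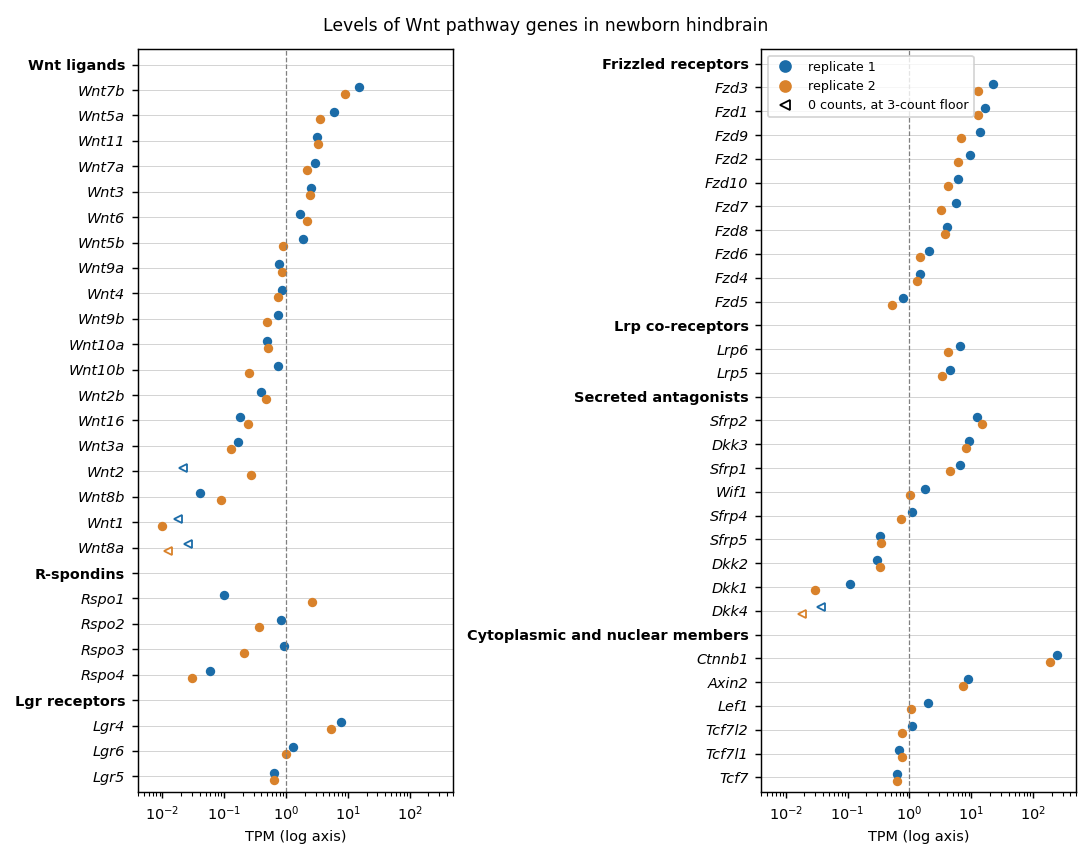
TPM of the 53 genes in replicate 1 (blue) and replicate 2 (orange) on a log axis, grouped by role and ordered by mean TPM, with the dashed line at 1 TPM and hollow triangles at the level of 3 counts where a library had 0 counts. Ctnnb1 stands alone at the high end, 9 of 10 Frizzled receptors lie right of the line in both libraries, and most ligands and all R-spondins have at least 1 point left of it.

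Among the ligands Wnt7b, a ligand of neurons and neural progenitors that acts on the vessels of the developing brain, was highest. Wnt7b (chr15:85535437-85582473, minus strand) had 15.1 TPM in replicate 1 and 9.01 TPM in replicate 2, from 3847 and 4691 counts, a mean of 12.05 ± 4.30 TPM. It lay at the 80.6th percentile of protein-coding genes and held 40.2% of the summed ligand TPM in replicate 1 and 32.7% in replicate 2. Its level exceeded that of the next ligand, Wnt5a, by 1.36 ± 0.004 on the log2 scale, with nearly the same ratio in both libraries. By the deposited posterior mean TPM the lead was not apart (0.26 ± 0.33), with 14.9 TPM for Wnt7b and 14.7 TPM for Wnt5a in replicate 1, where the Wnt5a value includes short transcripts with 0 counts.

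Wnt5a, which signals mainly without β-catenin and guides cell and axon polarity, had 5.87 TPM in replicate 1 and 3.52 TPM in replicate 2 (mean 4.695 ± 1.66, chr14:28504750-28527448). Wnt11, another ligand of the β-catenin-independent kind, had 3.19 and 3.29 TPM (mean 3.24 ± 0.071, chr7:98835112-98855195). Wnt5a and Wnt11 were not apart beyond the spread of their ratio, 0.49 ± 0.55 on the log2 scale, but were by coding transcripts alone (0.68 ± 0.59). Here 2 neighbours in the order are called apart where both libraries give the same sign and the mean log2 TPM ratio exceeds its SD. The call is a description and no test. With 2 libraries, neighbours of equal level can often meet it, and it does not cover counting error.

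Wnt7a, which like Wnt7b signals to brain endothelium and also acts at synapses of cerebellar granule cells, had 2.95 TPM in replicate 1 and 2.19 TPM in replicate 2 (mean 2.57 ± 0.537, chr6:91363981-91411363). Wnt3 had 2.50 and 2.40 TPM (mean 2.45 ± 0.071, chr11:103774150-103817957). Wnt7a and Wnt3 stood in opposite order in the 2 libraries, with a log2 ratio of 0.24 in replicate 1 and −0.13 in replicate 2. Wnt6 completed the detected ligands with 1.65 TPM in replicate 1 and 2.18 in replicate 2, and lay apart from Wnt3 by 0.37 ± 0.33.

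The remaining 13 ligands lay under 1 TPM in at least 1 library. Wnt5b came nearest, with 1.89 TPM in replicate 1 and 0.89 in replicate 2 (mean 1.39 ± 0.707). Mean levels were 0.82 TPM for Wnt9a, 0.79 for Wnt4, 0.62 for Wnt9b, 0.505 for Wnt10a, 0.495 for Wnt10b and 0.43 for Wnt2b. Many neighbours in this stretch of the order were not apart, and over all ligands 5 pairs of neighbours were apart, 9 were not and 4 could not be compared because of counts of 0. Wnt16 (0.21), Wnt3a (0.15), Wnt2 (0.135) and Wnt8b (0.065) lay lower still.

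Wnt1, the signal of the midbrain-hindbrain boundary in the embryo, had 0 counts in replicate 1 and 3 counts in replicate 2. The 3 counts that a count of 0 allows would be 0.0177 TPM in replicate 1. Wnt8a had no counts in either library, and 3 counts would amount to 0.0256 TPM in replicate 1 and 0.0125 TPM in replicate 2. Both genes were thus at or under what these depths can show, and such floors cover counting error only.

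Several Wnt genes lie next to each other in the genome, with no annotated protein-coding gene between them, and the members of a pair stood at unequal levels. Wnt3 and Wnt9b, separated by 24328 nt on chromosome 11, had 2.50 and 0.74 TPM in replicate 1, and 2.40 and 0.50 TPM in replicate 2. Wnt6 and Wnt10a, 6193 nt apart on chromosome 1, had 1.65 and 0.50 TPM in replicate 1, and 2.18 and 0.51 TPM in replicate 2. In each of these pairs the same gene was higher in both libraries.

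Wnt9a and Wnt3a, 16175 nt apart on chromosome 11, had 0.78 and 0.17 TPM in replicate 1, and 0.86 and 0.13 TPM in replicate 2. Wnt10b and Wnt1, 11706 nt apart on chromosome 15, had 0.74 and 0 TPM in replicate 1, and 0.25 and 0.01 TPM in replicate 2. The higher gene was again the same in both libraries.

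Frizzled receptors were led by Fzd3 and Fzd1. Fzd3, which is needed for axon tract formation and planar cell polarity, had 22.7 TPM in replicate 1 and 12.7 TPM in replicate 2 (mean 17.7 ± 7.10, chr14:65192449-65262463). Fzd1 had 16.7 and 12.6 TPM (mean 14.7 ± 2.89, chr5:4753839-4758035). Their ratio was 0.23 ± 0.31 on the log2 scale, so the order of the leading pair lay within the spread.

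Fzd9 had 13.9 TPM in replicate 1 and 6.71 TPM in replicate 2 (mean 10.3 ± 5.08, chr5:135248938-135251230). Fzd2 had 9.63 and 6.08 TPM (mean 7.855 ± 2.51, chr11:102604396-102608058). Fzd10 had 6.16 and 4.22 TPM (mean 5.19 ± 1.37, chr5:128600844-128604093). From Fzd1 down to Fzd7 each neighbour was apart from the next.

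Mean levels of the lower receptors were 4.425 TPM for Fzd7, 3.89 for Fzd8, 1.80 for Fzd6 and 1.39 for Fzd4. Fzd7 and Fzd8 were not apart (0.14 ± 0.46 on the log2 scale). Fzd4, the receptor for Norrin in vessels, had 1.47 TPM in replicate 1 and 1.31 in replicate 2. Fzd5 was the only receptor under 1 TPM, with 0.78 in replicate 1 and 0.52 in replicate 2. Summed over the family, Frizzled receptors reached 83.1 TPM in replicate 1 and 52.7 TPM in replicate 2, against 37.5 and 27.5 TPM for the 19 ligands.

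**Figure D2:**
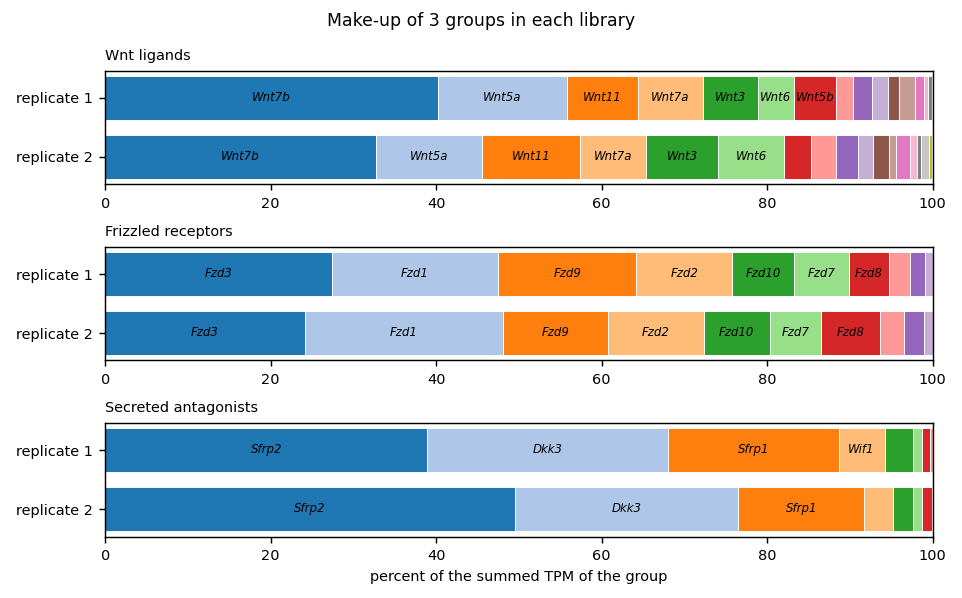
Percent of the summed TPM of the ligands, Frizzled receptors and secreted antagonists held by each gene, with replicate 1 above replicate 2 and genes over 4% labelled where they fit. Wnt7b holds 40.2% and 32.7% of the ligand total, Fzd3 27.4% and 24.1% of the receptor total, and Sfrp2 38.9% and 49.5% of the antagonist total. By posterior mean TPM the mean shares of Wnt7b and Fzd3 were 26.1% and 25.8%.

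Both co-receptors were present at like levels. Lrp6 (chr6:134446476-134566965) had 6.55 TPM in replicate 1 and 4.26 TPM in replicate 2 (mean 5.405 ± 1.62). Lrp5 (chr19:3584828-3686564) had 4.59 and 3.36 TPM (mean 3.975 ± 0.870). Lrp6 was higher in both libraries, by 0.43 ± 0.12 on the log2 scale.

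The antagonists were led by Sfrp2, Dkk3 and Sfrp1. Sfrp2, a secreted protein that carries a Frizzled-like Wnt-binding domain, had 12.4 TPM in replicate 1 and 14.7 TPM in replicate 2 (mean 13.55 ± 1.65, chr3:83766321-83774316). Dkk3, the member of its family that is not known to block Lrp co-receptors in the way of Dkk1, had 9.26 and 8.05 TPM (mean 8.655 ± 0.856, chr7:112116017-112159057). Sfrp1 had 6.54 and 4.52 TPM (mean 5.53 ± 1.43, chr8:23411502-23449632). Each was apart from the next, Sfrp2 from Dkk3 by 0.64 ± 0.32 and Dkk3 from Sfrp1 by 0.67 ± 0.23, but the lead of Sfrp2 rests on a short non-coding transcript described below.

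Wif1, the Wnt inhibitory factor, had 1.77 TPM in replicate 1 and 1.03 in replicate 2. Sfrp4 had 1.10 and 0.73 TPM, and lay below and apart from Wif1 by 0.59 ± 0.13. By coding transcripts alone Sfrp4 had the higher mean and the pair was not apart (0.19 ± 0.74). Mean levels were 0.335 TPM for Sfrp5, 0.315 for Dkk2 and 0.07 for Dkk1. Dkk4 had no counts in either library, and 3 counts would amount to 0.037 TPM in replicate 1 and 0.018 TPM in replicate 2. Dkk1, Dkk2 and Dkk4, which bind Lrp5 and Lrp6, were thus the 3 lowest of the antagonists.

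R-spondins were low, while Lgr4, one of their receptors, was well detected. Lgr4 (chr2:109917647-110014257) had 7.87 TPM in replicate 1 and 5.35 TPM in replicate 2 (mean 6.61 ± 1.78) and held 80.3% and 76.8% of the summed Lgr TPM. Lgr6 had 1.29 and 0.98 TPM (mean 1.135 ± 0.219). Lgr5, a marker of stem cells in several epithelia, had 0.64 TPM in each library, from 225 and 465 counts. Lgr4 was apart from Lgr6 by 2.53 ± 0.11 on the log2 scale, and Lgr6 from Lgr5 by 0.81 ± 0.28.

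Rspo1 had 0.10 TPM in replicate 1 and 2.61 TPM in replicate 2. Rspo2 had 0.84 and 0.37 TPM (mean 0.605 ± 0.332). Rspo3 had 0.93 and 0.21 TPM (mean 0.57 ± 0.509). The order of these 3 genes differed between the libraries, with Rspo3 highest in replicate 1 and Rspo1 in replicate 2. By coding transcripts alone Rspo2 was highest in replicate 2, at 0.37 TPM against 0.28 for Rspo1. Rspo4 had 0.06 TPM in replicate 1 and 0.03 TPM in replicate 2, and was apart from Rspo3 by 3.38 ± 0.81.

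Ctnnb1 stood far above every other gene of the group. It encodes β-catenin, which also links cadherins to the cytoskeleton at cell junctions. Ctnnb1 (chr9:120929216-120960507, plus strand) had 239 TPM in replicate 1 and 189 TPM in replicate 2, from 54684 and 79600 counts, a mean of 214 ± 35.3 TPM at the 99.5th percentile of protein-coding genes. It exceeded Axin2 by 4.73 ± 0.035 on the log2 scale.

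Axin2, a scaffold of the complex that breaks down β-catenin and a widely used target gene of the pathway, had 8.88 TPM in replicate 1 and 7.27 TPM in replicate 2 (mean 8.075 ± 1.14, chr11:108920349-108950783). Lef1 had 2.00 and 1.07 TPM (mean 1.535 ± 0.658, chr3:131110471-131224356). Tcf7l2 had 1.11 and 0.76 TPM (mean 0.935 ± 0.247, chr19:55741820-55933654). Of the 4 nuclear factors only Lef1 thus reached 1 TPM in both libraries. It did not by coding transcripts alone, with 1.81 and 0.88 TPM, and on the rescaled TPM all 4 did. Lef1 was apart from Tcf7l2 by 0.67 ± 0.25.

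Tcf7l1, the family member best known as a repressor, had 0.68 TPM in replicate 1 and 0.76 TPM in replicate 2 (mean 0.72 ± 0.057). Tcf7 had 0.62 and 0.63 TPM (mean 0.625 ± 0.007). By coding transcripts alone Tcf7l1 had 0.25 and 0.46 TPM, below Tcf7 at 0.61 and 0.64 TPM. Tcf7l2 and Tcf7l1 were equal in replicate 2, so their order was within the spread. Over all roles, 27 of 46 pairs of neighbours were apart, 14 were not and 5 could not be compared. How many of the 27 would be called apart without a true difference was not tested.

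Transcript tables showed that the level of a gene and the level of its coding transcripts can differ in this tissue. Of the 28 genes with a mean TPM of 1 or more, 13 had counts on 1 transcript only. For several of them, such as Fzd1, Fzd2, Fzd9 and Sfrp1, only 1 transcript is annotated, so this was fixed by the annotation. Fzd3 has 2 annotated transcripts and had counts on 1. In 20 of the 28, annotated protein-coding transcripts held at least 90% of the TPM in both libraries. Genes whose only annotated transcript is coding are among the 20 by annotation alone. The transcript with the largest share differed between the libraries in 5, was non-coding in 1 and held under 50% in 1.

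Sfrp2 was led by a non-coding transcript. Sfrp2-202, a processed transcript of 600 nt, held 58.5% of the TPM of the gene in replicate 1 and 80.95% in replicate 2, from 169.8 of 880 counts and 599.59 of 1391 counts. The coding transcript Sfrp2-201 of 2003 nt had 5.13 TPM in replicate 1 and 2.80 TPM in replicate 2. Because TPM divides by effective length, which was 286 nt for Sfrp2-202 and 1689 nt for Sfrp2-201 in replicate 1, the short transcript took more of the TPM than of the counts. By coding transcripts alone Sfrp2 held 18.8% of the antagonist TPM, against 44.2% over all transcripts. The last exon of Sfrp2-202 (chr3:83770104-83770143, GRCm38) has bounds that no exon of the other annotated Sfrp2 transcripts has. It is shown in capitals after the preceding bases of the transcript. Whether other parts also set Sfrp2-202 apart is not shown.
Sfrp2-202: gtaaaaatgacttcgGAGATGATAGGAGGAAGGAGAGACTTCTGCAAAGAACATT
The antisense gene Gm26771 shares exon bases with Sfrp2 and had 93 counts in replicate 1 and 73 in replicate 2. Of the 53 genes, 11 share exon bases with a gene on the opposite strand. Whether counting used strand is not stated, so reads of the antisense gene and of Sfrp2 may not be told apart.

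In Wif1 and Rspo1 the lead of coding over non-coding transcripts differed between the libraries. The retained-intron transcript Wif1-202 held 61.9% of Wif1 TPM in replicate 1 and 10.8% in replicate 2, and the coding Wif1-201 the rest. By coding transcripts, Wif1 had 0.67 TPM in replicate 1 and 0.92 TPM in replicate 2, so that the library with the higher Wif1 level was the other one. The processed transcript Rspo1-202 of 446 nt had 0 counts in replicate 1 and 58 counts in replicate 2, where it held 89.4% of the TPM. The coding Rspo1-201 had 13 counts in replicate 1 and 70 counts in replicate 2, or 0.10 and 0.28 TPM.

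The leading ligands were split between coding transcripts. Wnt7b-201 and Wnt7b-202 held 51.8% and 44.8% of Wnt7b TPM in replicate 1, and 37.6% and 61.7% in replicate 2. Wnt5a-201 and Wnt5a-202 held 53.2% and 46.5% in replicate 1, and 41.2% and 58.8% in replicate 2. The transcript that led was thus the other one in replicate 2 in both genes, and coding transcripts held 99.7% of Wnt5a TPM in replicate 1 and 100% otherwise.

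Wnt11 was measured from 2 annotated start sites, 3733 nt apart. Transcripts from the upstream start made up 39.7% of Wnt11 TPM in replicate 1 and 67.4% in replicate 2. Their share of the counts was lower, at 19.4% in replicate 1 and 33.9% in replicate 2, since most were of the 634-nt Wnt11-203. Transcripts from the downstream start, led by the 1792-nt Wnt11-205, made up 60.3% of TPM in replicate 1 and 32.6% in replicate 2. Of the counts they made up 80.6% in replicate 1 and 66.1% in replicate 2. By counts the downstream start thus led in both libraries, while by TPM the lead differed between them. The promoters of both starts, from RefSeq on GRCm38.p6, run from 250 bases before to 50 bases after the start and are shown because the data bear on which is used. Capitals mark the letters ATCAAAG, the reverse complement of the motif CTTTGAT to which TCF and LEF factors bind.
Wnt11 upstream promoter (chr7:98834862-98835161, plus strand): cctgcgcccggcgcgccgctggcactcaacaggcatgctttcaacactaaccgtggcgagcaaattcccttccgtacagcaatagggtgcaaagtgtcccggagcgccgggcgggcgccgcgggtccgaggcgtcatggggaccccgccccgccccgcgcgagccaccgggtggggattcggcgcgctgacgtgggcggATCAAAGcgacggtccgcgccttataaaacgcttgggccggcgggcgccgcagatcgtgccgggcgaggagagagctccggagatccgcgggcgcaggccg
Wnt11 downstream promoter (chr7:98838595-98838894, plus strand): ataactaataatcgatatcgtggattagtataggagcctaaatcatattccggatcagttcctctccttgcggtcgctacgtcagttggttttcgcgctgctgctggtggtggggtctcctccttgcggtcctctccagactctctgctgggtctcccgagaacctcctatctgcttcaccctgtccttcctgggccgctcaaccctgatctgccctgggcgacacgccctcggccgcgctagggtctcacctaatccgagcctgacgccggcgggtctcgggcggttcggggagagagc

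The letters CTTTGAT, on either strand, occur in the upstream Wnt11 promoter from 51 to 45 bases before the start. They occur in 1225 of 32851 RefSeq promoters (3.73%) and in 2 of the 45 promoters found for 36 of the 53 genes (4.44%). The other promoter was that of Wnt5b, from 71 to 65 bases before the start. The share among these genes was thus close to that among all promoters, and a match describes letters only.

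**Figure D3:**
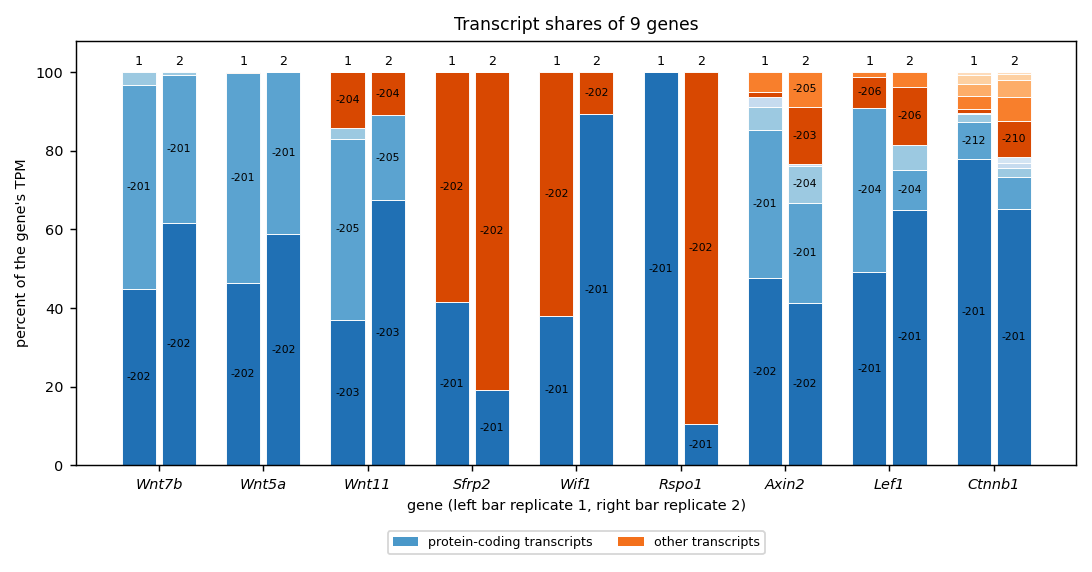
Percent of the TPM of 9 genes held by each annotated transcript, with replicate 1 as the left bar and replicate 2 as the right bar of each gene, protein-coding transcripts in blue and others in orange, and shares of at least 8% labelled with the number of the transcript. Non-coding transcripts hold over 58% of Sfrp2 in both libraries, Wif1 and Rspo1 differ between libraries in the share of coding transcripts, and Wnt7b and Wnt5a are divided between coding transcripts.

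Of the nuclear factors, Lef1 was led by Lef1-201 in both libraries, with 49.2% of TPM in replicate 1 and 65.04% in replicate 2. Lef1-204 held 41.7% in replicate 1 and 10.1% in replicate 2, from 207 and 54.6 counts. Lef1-204 lacks 2 exons of Lef1-201. An exon of 84 nt (chr3:131191023-131191106, plus strand) lies whole in the coding part and keeps the reading frame, and an exon of 41 nt (chr3:131204933-131204973) holds the end of the coding part. They are shown in capitals with the neighbouring bases of the transcript in lower case, since reads over them are what separates the transcripts.
Lef1-201, 84-nt exon: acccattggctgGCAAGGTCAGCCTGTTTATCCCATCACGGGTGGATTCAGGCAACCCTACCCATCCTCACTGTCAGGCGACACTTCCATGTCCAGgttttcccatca
Lef1-201, 41-nt exon: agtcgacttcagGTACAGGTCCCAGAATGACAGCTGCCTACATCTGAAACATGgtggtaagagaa

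Transcript shares of the lowest factors rest on few reads. Tcf7l2 had 270 and 268 counts, and its leading transcript Tcf7l2-209 made up 58.2% of TPM in replicate 1 and 9.13% in replicate 2, where the retained-intron transcript Tcf7l2-206 held 41.1%. Tcf7-201 held 94.7% of Tcf7 TPM in replicate 1 and 74.8% in replicate 2, with Tcf7-202 as the rest. The processed transcript Tcf7l1-205 held 63.1% of Tcf7l1 TPM in replicate 1 and 40.1% in replicate 2, from 14 and 21 counts. The log2 ratio of the gene counts, replicate 1 over replicate 2, was 0.52 for Tcf7l2 and −0.45 for Tcf7.

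Axin2 and Ctnnb1 had more reads. Axin2-202 held 47.6% of Axin2 TPM in replicate 1 and 41.4% in replicate 2, and Axin2-201 held 37.7% and 25.4%. Ctnnb1-201 held 77.8% of Ctnnb1 TPM in replicate 1 and 65.3% in replicate 2. The retained-intron transcript Ctnnb1-210 held 0.83% in replicate 1 and 9.20% in replicate 2. In both genes coding transcripts held less of the TPM in replicate 2, with 76.6% for Axin2 against 93.8% in replicate 1, and 78.5% for Ctnnb1 against 89.7%. The kinase gene Ulk4, which overlaps Ctnnb1 on the opposite strand, had 776 counts in replicate 1 and 867 in replicate 2, few beside those of Ctnnb1.

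Between the libraries, counts scaled for depth were compared gene by gene. Of the 50 with a mean count of 10 or more, 5 differed by at least 1 on the log2 scale (10%), against 10.4% of all protein-coding genes with that count. The share was thus near the background. Within 0.5 of equality lay 32 of the 50, against 77.7% of all protein-coding genes with that count. The 5 were Rspo3 and Dkk1, higher in replicate 1 (background 4.05%), and Wnt2, Rspo1 and Wnt8b, higher in replicate 2 (background 6.3%). At a mean count of 50 or more, Rspo1 and Rspo3 were the only 2.

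Rspo3 had 158 counts in replicate 1 and 74 counts in replicate 2, a log2 ratio of replicate 1 over replicate 2 of 1.57. Rspo1 had 13 and 128 counts, a log2 ratio of −2.64. All 13 counts in replicate 1, but 70 of the 128 in replicate 2, fell on the coding Rspo1-201. Both R-spondins past this limit thus differed in opposite directions. The 95% exact counting interval of the ratio without the prior count was 1.20 to 2.02 for Rspo3 and −3.74 to −1.97 for Rspo1, and covers counting error only.

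Wnt2 had 0 counts in replicate 1 and 70 counts in replicate 2, which is 16.4-fold higher in replicate 2 when replicate 1 is set at 3 counts. This fold does not cover counting error in replicate 2. The 95% exact counting interval of the log2 ratio, replicate 1 over replicate 2, has its upper end at −3.70. Of the 70 counts, 51.4 fell on a transcript that the annotation used here does not name. The 18.6 on the coding Wnt2-201 give 4.36-fold in the same way. Wnt8b had 9 and 44 counts, a log2 ratio of −1.61 with a counting interval of −3.00 to −0.73. Dkk1 had 19 and 9 counts, a log2 ratio of 1.37 with an interval of 0.37 to 2.91. The intervals of Wnt8b and Dkk1 thus reach to within 1 of equality.

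Genes with few reads carried these differences. All 5 had a mean count under 200, a limit chosen after the values were seen, as did 17 of the 50. Among protein-coding genes under that count 47.2% differed by at least 1, and above it 1.56%. The 33 members above it lay between −0.83, for Wnt6, and 0.57, for Wnt5b. Among the well-counted genes Wnt7b was at 0.22, Fzd3 at 0.33, Sfrp2 at −0.15, Lrp6 at 0.16, Axin2 at −0.02 and Ctnnb1 at −0.03.

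**Figure D4:**
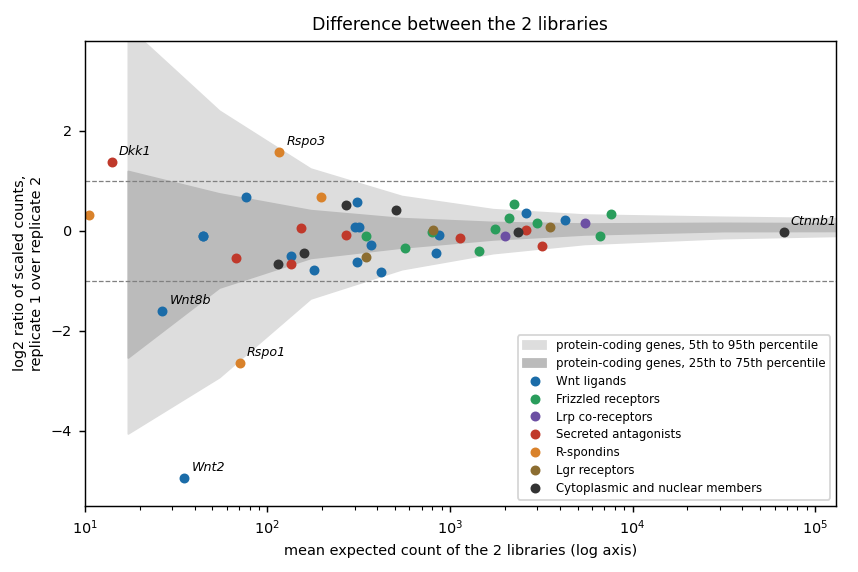
Log2 ratio of scaled counts, replicate 1 over replicate 2, against the mean expected count on a log axis for the 50 members with a mean count of 10 or more, coloured by role, over the range of protein-coding genes in grey, with dashed lines at 1 and −1. The 5 labelled genes outside the dashed lines all have a mean count under 200, the value plotted for Wnt2 depends on the prior count of 2 because replicate 1 had 0 counts, and Ctnnb1 at the right lies near 0.

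Markers of neighbouring tissue also differed between the libraries. Of all protein-coding genes with enough counts 10.4% differed by at least 1, or 47.2% under a mean count of 200 and 1.56% above it. Of the 7 spinal cord Hox genes with enough counts 4 differed by at least 1, with a list median log2 ratio of 0.99. In all, 5 of the 7 were higher in replicate 1 and 2 in replicate 2, and Hoxc6, at −1.48, was among the 4. Of the 5 cartilage and muscle genes 3 differed by at least 1, with a median of 1.49, and all 5 were higher in replicate 1. Of the genes past the limit in these lists, Hoxd8, Hoxc6 and Matn1 had mean counts under 200. Hoxb8, Hoxa6, Acta1 and Myh3 had more. Of the 6 choroid plexus genes 5 were higher in replicate 2, with a median of −0.53. Meningeal genes had a median of −0.02 with 4 of 8 higher in each library, and endothelial genes one of 0.08. The part of these differences in those of the Wnt pathway genes was not tested.

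The rest of the pathway was followed with a list of 60 other genes. Of these, 55 (91.7%) reached 1 TPM in both libraries, beside 25 of the 53 members (47.2%) and 54.6% of all protein-coding genes. On the rescaled TPM 43 of the 53 members did, against 63.4% of all protein-coding genes. The 60 genes were not counted on that scale. Genes that make or clear Wnt ligands included Porcn, the enzyme that attaches the lipid, at 15.04 ± 2.72 TPM and Wls, the carrier that brings Wnt to the cell surface, at 6.52 ± 0.057 TPM. The lowest of these 4 genes was Trabd2b, a protease of Wnt, at 0.39 ± 0.057 TPM, and 3 of 4 were detected. Between the libraries the 4 genes had log2 ratios from −0.53 to 0.49.

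Of 13 surface modulators 9 were detected. Apcdd1, a membrane inhibitor of the pathway, was highest at 51.1 ± 14.8 TPM, above every secreted antagonist, followed by Tpbg at 13.7 ± 3.73 TPM. Frzb had 2.96 TPM in replicate 1 and 1.81 TPM in replicate 2. The co-receptor antagonist Sost was lowest at 0.03 ± 0.042 TPM. Of the 59 genes with enough counts, only Gpc3 (−1.06) and Rnf43 (−1.48) differed by at least 1 between libraries, against 10.4% of all protein-coding genes. Both are surface modulators and were higher in replicate 2.

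All 11 alternative receptors and polarity genes were detected, led by the planar polarity genes Vangl2 at 24.7 ± 11.5 TPM and Celsr2 at 22.3 ± 5.80 TPM, down to Ror1, a receptor of Wnt5a, at 1.305 ± 0.276 TPM. All 18 cytoplasmic genes were detected, from Apc2 at 85.8 ± 20.1 TPM and Csnk1e at 80.1 ± 25.9 TPM to Amer1 at 4.37 ± 1.03 TPM. All 9 nuclear cofactors were detected too, with Ctnnbip1, an inhibitor of β-catenin, at 23.9 ± 3.30 TPM, the co-repressor Tle1 at 22.5 ± 6.11 TPM and Bcl9 at 5.185 ± 1.51 TPM. Every listed cytoplasmic and nuclear gene thus passed 1 TPM in both libraries.

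All 5 listed target genes were detected. Cldn5, a tight junction gene of brain endothelium, had 44.9 ± 14.3 TPM, Ccnd1, the cell cycle gene for cyclin D1, 12.1 ± 0.332 TPM, and Myc 3.175 ± 0.827 TPM. Their expression also depends on other signals.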

How the data were processed

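Per the file headers and deposited notes, the authors made a gene and a transcript table per library from transcriptome alignments (mm10, GENCODE M4). Neither the aligner nor the quantifier is stated in the sources used here. The deposited expected counts are estimates and can be fractional, the deposited TPM divides them by effective length, and a deposited percent value is the part of a gene's TPM that falls to a transcript. Deposited interval bounds on the TPM signal have no stated level and were not printed. GENCODE M21 supplied symbols for 42462 of 43346 Ensembl genes (98%). Rows that name no mouse gene (1.28% and 1.09% of counts) stayed out of scaling. Counts were rounded to whole numbers and scaled by TMM in edgeR 4.0.16 (R 4.3.3) with a prior count of 2. The ratios were tested on simulated data, with changes placed only in genes with a summed count of at least 200. That test does not cover genes with fewer counts, such as Wnt2, Wnt8b, Dkk1 and Rspo1. DESeq2 1.42.0 size factors were an alternative. All members are named, with values in both libraries for the highest of each role, small roles, members past 1 in log2 ratio and neighbouring Wnt genes, and of the other pathway genes the 2 highest and the lowest of each group. Fzd5, Fzd4, Frzb, Wif1, Sfrp4, Wnt6 and Wnt5b values, where outside this rule, and the ratios of well-counted genes were chosen after being seen. Members and lists were chosen with earlier results of these data known.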

Additional observations from a re-analysis of the deposited data

How the results depend on the processing

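Detection depended on the shared scale of TPM and on the limit. As deposited 25 members were detected, against 43 with TPM rescaled over nuclear protein-coding genes and 23 with coding transcripts only. Leaving out either library gave 26 to 29. A TPM limit of 0.5 gave 37 and a limit of 2 gave 20. The median level of 0.54 on the log2 scale became 1.24 with a pseudocount of 1, 0.0215 with coding transcripts only (a setting chosen after the data were seen), and 0.11 to 0.48 with 1 library. The 5 members past 1 between libraries became 2 at a mean count of at least 50. With posterior mean TPM, the share of Wnt7b in the ligand total was 26.1% against 36.5%, that of Lgr4 75.3% against 78.5% and that of Ctnnb1 94.5% against 94.7%. The posterior mean TPM of Wnt5a (14.7 in replicate 1) and Wnt7a (14.3) includes short transcripts with 0 counts, Wnt5a-205 and Wnt7a-203. With coding transcripts only, Sfrp2 held 18.8%, Lrp6 61.2% and Ctnnb1 94.9%. A leading transcript under 50% occurred in 2 members by posterior mean and in 1 to 3 with 1 library. With 1 library the shares ranged from 32.7% to 40.2% (Wnt7b), 24.1% to 27.4% (Fzd3), 55.9% to 58.8% (Lrp6), 38.9% to 49.5% (Sfrp2), 5.18% to 81.1% (Rspo1), 76.8% to 80.3% (Lgr4) and 94.74% to 94.75% (Ctnnb1), and 55 to 56 pathway genes were detected. Of 56 recomputed values 43 stayed within the main value's spread or 1.5 times its count. With 1 library left out the shares could not leave that spread, because the main value is the mean of both libraries. The tally is therefore no measure of how robust the shares are. No paired analysis was possible because the series has 1 group. Where the cause of a shift is not given by the setting itself, it was not tested.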
